A study of Mus musculus with 16 samples.

Results

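Apolipoprotein E and 7 further genes of cholesterol handling were followed through tdTomato-positive cells sorted from mouse lung. The 8 members were chosen by name from the 49452 genes of the expression tables: Apoe and Apoc1, 2 apolipoproteins; Abca1 and Abcg1, 2 sterol exporters; Npc1 and Npc2, which move cholesterol out of lysosomes; and the lipases Lpl and Lipa. All 8 had 1 row in each table. Because the set was picked with results of the same mice known, its values are given here as a description, without tests on the members, and tests are reported only for other genes of the pathway. The lists of those other genes were also chosen with earlier results of these data known.

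The cells came from 16 mice in 4 groups of 4. The Acta2-CreERT2; tdTomatoflox line (Acta2-tdT) marks cells in which the promoter of Acta2, the gene of α-smooth muscle actin, drives a tamoxifen-dependent recombinase. The Pdgfra-CreERT2; tdTomatoflox line (Pdgfra-tdT) does the same with the promoter of the platelet-derived growth factor receptor-α gene. Mice of each line were given saline or bleomycin, an agent that scars the lung, and the cells were taken 14 days later, at 11 weeks of age. The lines also differed in their labelling: Acta2-tdT mice ate food with 400 mg/kg tamoxifen from day 5 after saline or bleomycin, whereas Pdgfra-tdT mice had 5 injections of 3 mg tamoxifen at 6 weeks of age, before either agent. Every group, the saline controls included, thus carried a Cre driver and the reporter and had received tamoxifen, and a reporter-positive cell records that the driver was active at labelling, not that it still was at the sort. A difference between the lines cannot be told apart from a difference between these labelling schedules.

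Cholesterol leaves a cell in several steps. Lipoproteins and engulfed membranes are taken up into lysosomes, where acid lipase (Lipa) splits cholesteryl esters and the NPC2 and NPC1 proteins pass free cholesterol on. ABCA1 and ABCG1 in the outer membrane then load it onto acceptors, among them apolipoprotein E, which carries lipids back to lipoprotein receptors. Lipoprotein lipase (Lpl) releases fatty acids from circulating lipoproteins. In the lung, macrophages handle surfactant lipid through this route, and Apoe is among their abundant transcripts. The exporters and Apoe are classical targets of the oxysterol receptor LXR, and cholesterol synthesis is governed by SREBP2.

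Levels are FPKM, fragments scaled by transcript length and by the mapped total, a unit meant to allow comparison between genes as well as between mice. They are given as deposited and also after each mouse was scaled so that its nuclear protein-coding genes summed to 49122.5 FPKM, the median of the 16 mice. The second scale was needed because those sums ran from 35602 to 57788 in Acta2-tdT saline mice, 231058 to 463127 in Acta2-tdT bleomycin mice, 29964 to 59840 in Pdgfra-tdT saline mice and 28512 to 137952 in Pdgfra-tdT bleomycin mice. In Acta2-tdT mice the median gene of 12523 tested was therefore 1.76 higher after bleomycin on the log2 scale as deposited and -0.02 after scaling. Pdgfra-tdT saline mouse 3 and Pdgfra-tdT bleomycin mouse 5 had the highest protein-coding sums of their groups and the highest summed FPKM of 7 endothelial markers, 509 and 1184. In the other 6 Pdgfra-tdT mice that endothelial sum lay between 5.03 and 135. Where leaving out both mice changed whether groups of a member overlapped, the value without them is given as well. The driver genes followed the line labels under saline: Acta2 stood at 139 to 314 FPKM in Acta2-tdT and 2.59 to 11.0 FPKM in Pdgfra-tdT mice, and Pdgfra at 0.273 to 0.562 FPKM and 2.14 to 3.82 FPKM, respectively. After bleomycin, Pdgfra measured 2.49 to 11.9 FPKM in Acta2-tdT and 0.977 to 2.45 FPKM in Pdgfra-tdT mice, a log2 difference of 1.60 ± 0.45 in favour of Acta2-tdT. Scaled, it was 0.529 to 1.26 FPKM against 0.873 to 2.33 FPKM, with overlap and a log2 difference of -0.33 ± 0.22. Of 9 fibroblast markers, Tcf21 alone was at 0 in any mouse. It was listed at 0 in at least 1 mouse of every group and in all 4 Pdgfra-tdT bleomycin mice. The summed FPKM of the 9 was 7.78 to 58.3 (median 12.6) under saline and 3.33 to 166 (median 13.6) under bleomycin in Pdgfra-tdT mice. In sorted bulk cells, fewer cells of a type and less RNA per cell cannot be told apart.

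Apoe, the principal cholesterol acceptor of the set (ENSMUSG00000002985, mm10 chromosome 7, 19696109 to 19699188, minus strand), was by far the most abundant member. Its FPKM in Acta2-tdT saline mice 1 to 4 was 180, 121, 294 and 1033. In Acta2-tdT bleomycin mice 5 to 8 it was 2800, 3973, 12332 and 7055. Every bleomycin mouse of this line stood above every saline mouse, and mouse 4 stood above its saline group. In Pdgfra-tdT mice, Apoe read 21.8, 10.3, 46.4 and 56.5 FPKM under saline and 466, 755, 608 and 58.4 FPKM under bleomycin. The groups of this line met at their edge, with bleomycin mouse 8 only just above saline mouse 4. The log2 difference between bleomycin and saline was 4.28 ± 0.82 (SE, n = 4 and 4) in Acta2-tdT and 3.54 ± 1.0 in Pdgfra-tdT mice.

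Scaling changed the Apoe picture in one line more than in the other. Scaled Apoe was 240, 168, 297 and 878 FPKM in Acta2-tdT saline mice and 432, 845, 1390 and 748 FPKM in the bleomycin mice of that line. The highest saline mouse thus lay within the bleomycin range, and the log2 difference was 1.29 ± 0.62 (SE, n = 4 and 4). In Pdgfra-tdT mice the scaled values were 35.7, 16.8, 38.1 and 76.9 FPKM under saline and 166, 746, 703 and 101 FPKM under bleomycin, without overlap. That log2 difference was 3.03 ± 0.85, and 3.35 ± 1.13 without saline mouse 3 and bleomycin mouse 5. The order of the group medians was the same on both scales, from Acta2-tdT bleomycin through Pdgfra-tdT bleomycin and Acta2-tdT saline to Pdgfra-tdT saline. As deposited, Pdgfra-tdT bleomycin and Acta2-tdT saline were the only neighbours in that order whose mice overlapped. After scaling, Acta2-tdT bleomycin and Pdgfra-tdT bleomycin mice overlapped as well. Under saline, Apoe was higher in every Acta2-tdT mouse than in every Pdgfra-tdT mouse on both scales, with medians of 237 and 34.1 FPKM as deposited and a scaled log2 difference of 3.10 ± 0.67.

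The rank of Apoe among the 21950 nuclear protein-coding genes does not change when a whole library is scaled. Apoe ranked between 3 and 22 in Acta2-tdT saline mice, between 1 and 10 in Acta2-tdT bleomycin mice, between 26 and 140 in Pdgfra-tdT saline mice and between 7 and 23 in Pdgfra-tdT bleomycin mice. The median rank was 3.5 in Acta2-tdT bleomycin, 12 in Acta2-tdT saline, 14.5 in Pdgfra-tdT bleomycin and 74 in Pdgfra-tdT saline mice. In Acta2-tdT bleomycin mouse 7 no nuclear protein-coding gene had a higher FPKM. In Pdgfra-tdT mice every bleomycin rank was ahead of every saline rank, whereas the ranks of the Acta2-tdT groups overlapped.

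**Figure D1:**
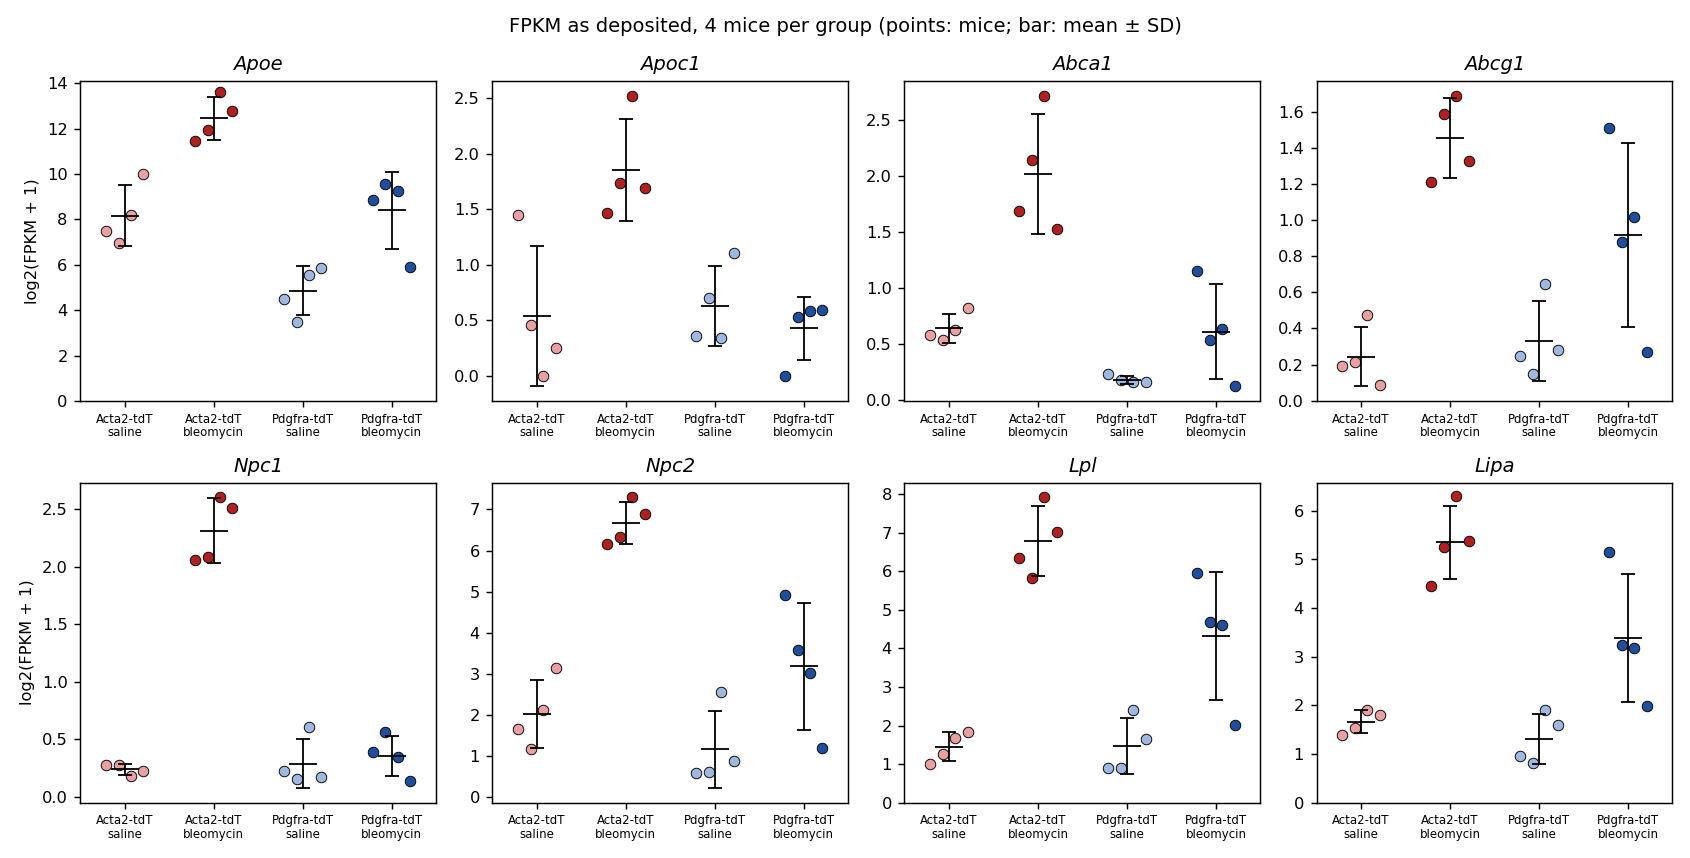
Level of each member in every mouse, as log2(FPKM + 1) of the deposited values on the vertical axis and the 4 groups on the horizontal axis (points: mice; bar: mean ± SD, n = 4). All 4 Acta2-tdT bleomycin mice lie above all 4 Acta2-tdT saline mice in each panel, and Apoe, from 10.3 to 12332 FPKM, spans the widest range.

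The promoter of Apoe is shown because Apoe is the most abundant member and the reference for the likeness given further on. The 250 bases before the RefSeq start that matches the start of the gene in the tables (GRCm38.p6, chr7:19699189-19699438, minus strand, 5′ to 3′) read as follows.
Apoe: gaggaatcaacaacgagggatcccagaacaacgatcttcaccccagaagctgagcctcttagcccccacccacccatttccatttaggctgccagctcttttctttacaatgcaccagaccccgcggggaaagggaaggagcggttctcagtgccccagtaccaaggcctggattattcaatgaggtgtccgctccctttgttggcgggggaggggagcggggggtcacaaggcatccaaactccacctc
None of the 5 motifs searched on both strands was found in this window, so no base is in capitals. They were a relaxed LXR element of the DR4 type (NGGTNA and NGGTCA with 4 bases between them), a sterol regulatory element (TCACNCCAC), the core of the lysosomal CLEAR element (TCACGTG), an AP-1 site (TGANTCA) and a TATA box (TATAAA). Of 32851 mouse promoters of the same length, 0.177%, 1.05%, 3.13%, 6.75% and 12.4% held them, in that order. RefSeq lists 2 further starts for Apoe within the gene, whose windows were also searched and are not printed here. The window of the second start held TATA matches at -100 to -95 and -96 to -91, on opposite strands and overlapping, and that of the third held none of the 5 motifs.

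Apoc1, an apolipoprotein of very low and high density lipoproteins, lies 3448 bases downstream of Apoe on the same strand (ENSMUSG00000040564, chromosome 7, 19689481 to 19692660). To judge low levels, the 1412 olfactory and vomeronasal receptor genes, which lung cells do not use, served as a gauge. Their median FPKM was 0.321 to 0.329 in Acta2-tdT saline mice but 0.0129 to 0.120 in Acta2-tdT bleomycin mice, a lower bar, and 0.173 to 0.333 and 0.0919 to 0.314 in Pdgfra-tdT mice without and with bleomycin. Apoc1 was at or below this receptor gauge, the median of its own mouse, in 2 Acta2-tdT saline mice, 1 Pdgfra-tdT saline mouse and 1 Pdgfra-tdT bleomycin mouse, and above it in all 4 Acta2-tdT bleomycin mice. Its FPKM was 1.73, 0.376, 0 and 0.187 in Acta2-tdT saline mice and 1.76, 2.33, 4.75 and 2.24 in Acta2-tdT bleomycin mice. In Pdgfra-tdT mice it was 0.284, 0.624, 0.265 and 1.15 under saline and 0, 0.445, 0.501 and 0.504 under bleomycin. Only the Acta2-tdT bleomycin mice stood apart from the rest, and after scaling they no longer did, at 0.238 to 0.536 FPKM. In 11 of 16 mice the interval that Cufflinks gave for Apoc1 reached 0.

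Abca1, the exporter that lipidates apolipoproteins (ENSMUSG00000015243, chromosome 4, 53030787 to 53159895, minus strand), separated the lines under saline but at low levels. It stood at 0.492, 0.448, 0.543 and 0.773 FPKM in Acta2-tdT saline mice and at 0.176, 0.129, 0.117 and 0.118 FPKM in Pdgfra-tdT saline mice, so that the groups did not overlap. The log2 difference was 0.46 ± 0.07 (SE, n = 4 and 4) as deposited and 0.45 ± 0.05 after scaling. After bleomycin Abca1 read 2.23, 3.42, 5.60 and 1.89 FPKM in Acta2-tdT mice, above all saline mice of that line. Scaled, however, these mice measured 0.201 to 0.726 FPKM against 0.550 to 0.657 FPKM under saline, and the log2 difference turned from 1.38 ± 0.27 to -0.15 ± 0.12. In Pdgfra-tdT bleomycin mice Abca1 was 1.22, 0.451, 0.555 and 0.0882 FPKM, which straddled the saline values of that line.

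All 4 Pdgfra-tdT saline mice had Abca1 at or below their own receptor median, and no Acta2-tdT mouse did.

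The Abca1 promoter is printed because it held the LXR-type element that only 58 of the 32851 promoters contained (GRCm38.p6, chr4:53159896-53160145, minus strand, 5′ to 3′, 250 bases before the RefSeq start). Capitals mark, from left to right, the relaxed DR4 match at -67 to -52 and the TATA match at -29 to -24 from that start, which do not overlap.
Abca1: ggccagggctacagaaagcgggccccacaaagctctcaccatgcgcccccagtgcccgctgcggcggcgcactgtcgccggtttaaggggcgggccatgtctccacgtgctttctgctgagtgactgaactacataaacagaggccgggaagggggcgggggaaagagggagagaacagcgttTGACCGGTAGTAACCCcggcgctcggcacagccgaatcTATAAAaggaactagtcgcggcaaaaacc
The DR4 match lies on the strand opposite to the gene. It is a match of letters only, and no binding was measured. The promoter windows of Npc2 and Lipa were also searched. Lipa held a TATA match far from its start and Npc2 held none of the 5 motifs. Apoc1, Abcg1, Npc1 and Lpl had no entry in the promoter table.

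Abcg1, the exporter that loads cholesterol onto high density lipoprotein (ENSMUSG00000024030, chromosome 17, 31057698 to 31115777), was lower in Acta2-tdT than in Pdgfra-tdT bleomycin mice by its scaled median. It was 0.144, 0.161, 0.390 and 0.0641 FPKM in Acta2-tdT saline mice and 1.32, 2.01, 2.22 and 1.51 FPKM in Acta2-tdT bleomycin mice. In Pdgfra-tdT mice it was 0.187, 0.107, 0.567 and 0.213 FPKM under saline and 1.84, 0.835, 1.03 and 0.204 FPKM under bleomycin. As deposited, the median was thus highest in Acta2-tdT bleomycin mice, which overlapped with Pdgfra-tdT bleomycin mice. Scaled medians were 0.227 FPKM in Acta2-tdT bleomycin and 0.741 FPKM in Pdgfra-tdT bleomycin mice, and the log2 difference between the lines after bleomycin changed sign from 0.54 ± 0.28 to -0.46 ± 0.16, with overlapping mice on both scales. Without saline mouse 3 and bleomycin mouse 5 of the Pdgfra-tdT line, the lines no longer overlapped after bleomycin as deposited (0.73 ± 0.26), and Pdgfra-tdT bleomycin mice all exceeded their saline mice after scaling (0.48 ± 0.21). In 3 of 4 mice of each saline group and in 1 Pdgfra-tdT bleomycin mouse Abcg1 was at or below the receptor gauge. As deposited, the gauge itself was 0.0129 to 0.120 FPKM in Acta2-tdT and 0.0919 to 0.314 FPKM in Pdgfra-tdT bleomycin mice.

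Of the lysosomal exit proteins, Npc2 exceeded Npc1 in every mouse, by 3.13 to 96.4 times. Npc2, the soluble sterol carrier of the lysosome lumen (ENSMUSG00000021242, chromosome 12, 84754560 to 84773112), was 2.16, 1.26, 3.34 and 7.78 FPKM in Acta2-tdT saline mice and 70.6, 79.5, 156 and 117 FPKM in Acta2-tdT bleomycin mice. Scaled, the ranges were 1.74 to 6.61 and 10.9 to 17.6 FPKM, still without overlap, with a log2 difference of 1.81 ± 0.34 (SE, n = 4 and 4). In Pdgfra-tdT saline mice Npc2 was 0.514, 0.530, 4.88 and 0.836 FPKM, where mouse 3 stood far above the other three. In Pdgfra-tdT bleomycin mice it was 29.5, 10.9, 7.15 and 1.29 FPKM. The groups of this line overlapped through saline mouse 3 and bleomycin mouse 8. The scaled log2 difference was 1.69 ± 0.56, and without saline mouse 3 and bleomycin mouse 5 it was 1.86 ± 0.58 with no overlap. The value as deposited was then 1.90 ± 0.72, also with no overlap. Without saline mouse 3, Npc2 was also higher in every Acta2-tdT than in every Pdgfra-tdT mouse under saline, by 1.33 ± 0.43 as deposited and 1.16 ± 0.31 after scaling.

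Npc1, the membrane-bound partner of Npc2 (ENSMUSG00000024413, chromosome 18, 12189693 to 12236400), was low in all groups except 1. Its FPKM was 0.213, 0.209, 0.130 and 0.166 in Acta2-tdT saline mice, all at or below the receptor gauge, and 3.17, 3.25, 5.08 and 4.68 in Acta2-tdT bleomycin mice. After scaling, the bleomycin mice of this line, at 0.490 to 0.691 FPKM, remained above the saline mice, at 0.131 to 0.289 FPKM, and above the Pdgfra-tdT bleomycin mice, at 0.109 to 0.469 FPKM. The scaled log2 difference between bleomycin and saline was 0.37 ± 0.07 in Acta2-tdT and -0.0021 ± 0.11 in Pdgfra-tdT mice. Both values are on the log2(FPKM + 1) scale, which understates changes of genes this low. Npc1 was at or below the receptor gauge in 3 Pdgfra-tdT saline and 2 Pdgfra-tdT bleomycin mice. The value of that line hence compares readings near the gauge and cannot show that Npc1 stayed unchanged.

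**Figure D2:**
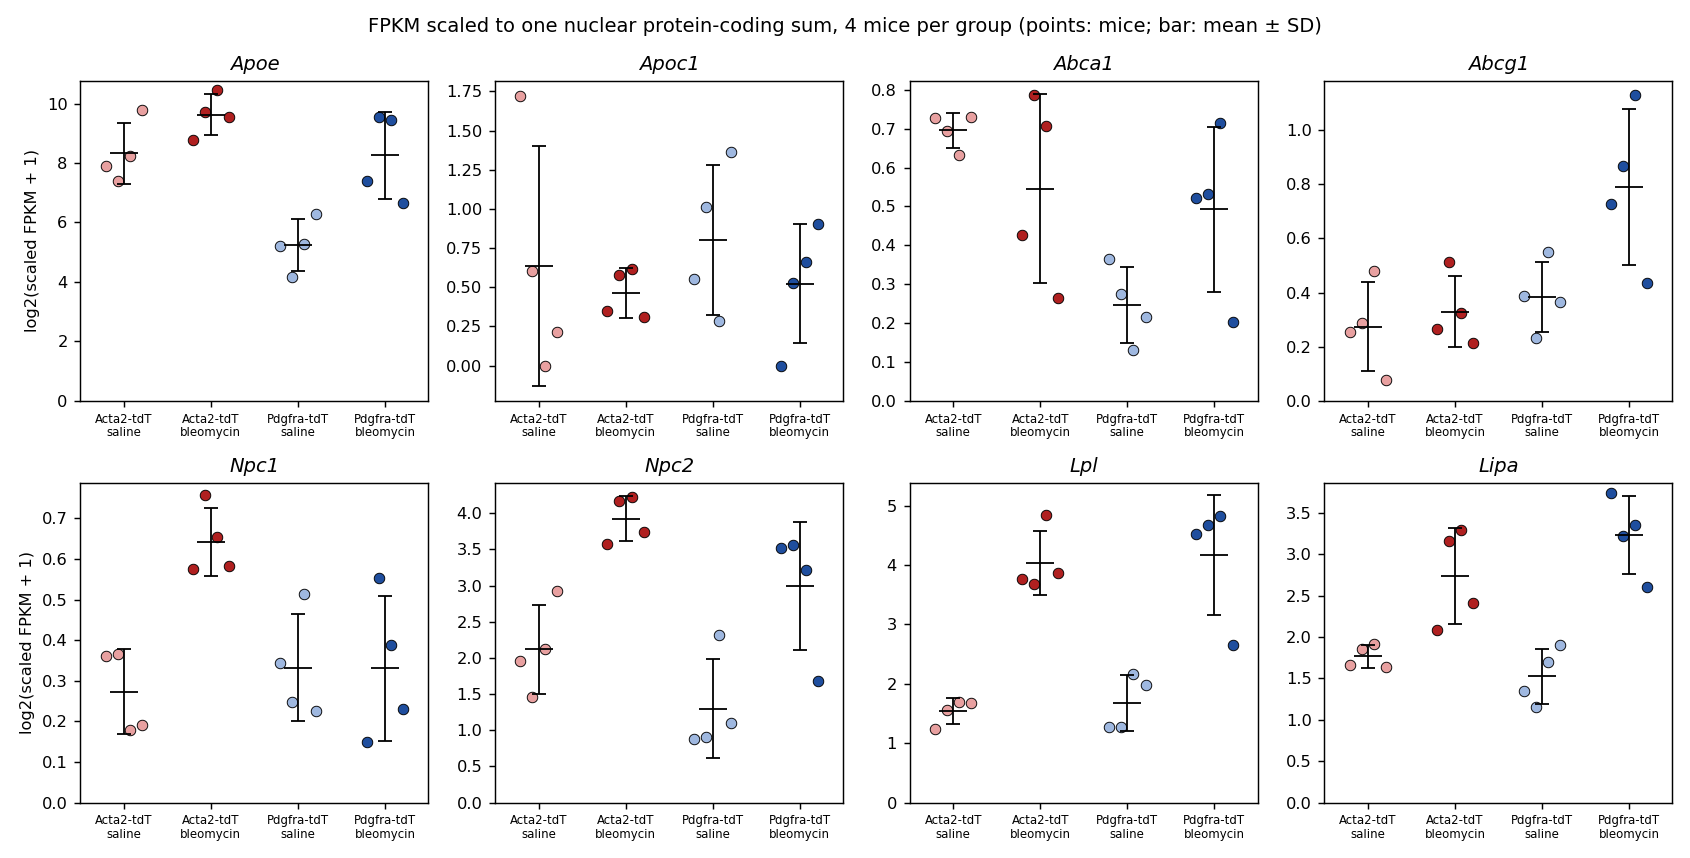
Level of each member in every mouse after scaling to a common nuclear protein-coding sum, as log2(scaled FPKM + 1) on the vertical axis and the 4 groups on the horizontal axis (points: mice; bar: mean ± SD, n = 4). Npc1, Npc2, Lpl and Lipa keep all Acta2-tdT bleomycin mice above all saline mice of the line, whereas Apoe, Apoc1, Abca1 and Abcg1 do not.

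Both lipases were higher after bleomycin in the 2 lines on the scaled values. Lpl (ENSMUSG00000015568, chromosome 8, 68880491 to 68906934) was 1.02, 1.41, 2.22 and 2.59 FPKM in Acta2-tdT saline mice and 81.2, 55.9, 245 and 128 FPKM in Acta2-tdT bleomycin mice. In Pdgfra-tdT mice it was 0.856, 0.869, 4.27 and 2.17 FPKM under saline and 61.7, 24.9, 23.6 and 3.07 FPKM under bleomycin. The Pdgfra-tdT groups overlapped as deposited, because bleomycin mouse 8 read lower than saline mouse 3, and without saline mouse 3 and bleomycin mouse 5 they did not (2.63 ± 0.91). Scaled Lpl was 1.36 to 2.25 against 11.9 to 27.6 FPKM in Acta2-tdT mice and 1.40 to 3.5 against 5.29 to 27.3 FPKM in Pdgfra-tdT mice, with no overlap in either line. The scaled log2 differences were 2.49 ± 0.29 and 2.49 ± 0.56 (SE, n = 4 and 4). Between the lines, scaled Lpl differed by -0.13 ± 0.26 on the log2 scale under saline and by -0.13 ± 0.58 under bleomycin, and the mice of the lines overlapped under both agents. As deposited the difference after bleomycin had the other sign, at 2.46 ± 0.94 with overlap, and at 3.01 ± 0.99 with none once Pdgfra-tdT bleomycin mouse 5 was left out.

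Lipa, the lysosomal acid lipase (ENSMUSG00000024781, chromosome 19, 34492318 to 34527474), showed the pattern with a smaller difference in Acta2-tdT mice. It was 1.63, 1.89, 2.75 and 2.50 FPKM under saline and 21, 37.4, 77.9 and 40.8 FPKM under bleomycin in that line. In Pdgfra-tdT mice it was 0.941, 0.756, 2.74 and 2.01 FPKM under saline and 34.6, 8.40, 8.01 and 2.95 FPKM under bleomycin, and no bleomycin mouse was as low as a saline mouse. Scaled log2 differences were 0.97 ± 0.30 in Acta2-tdT and 1.70 ± 0.29 in Pdgfra-tdT mice, and the groups of neither line overlapped. Between the lines after bleomycin, Lipa changed sign with the scale, from 1.97 ± 0.76 as deposited to -0.49 ± 0.37 scaled, with overlap on both. Without Pdgfra-tdT bleomycin mouse 5 the deposited values no longer overlapped (2.56 ± 0.56). Within a mouse, Lpl was 0.624 to 1.04 times Lipa in Acta2-tdT saline and 1.49 to 3.87 times Lipa in Acta2-tdT bleomycin mice, a ratio that does not depend on scaling. In Pdgfra-tdT mice the same ratio was 0.909 to 1.56 under saline and 1.04 to 2.96 under bleomycin, with overlap.

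**Figure D3:**
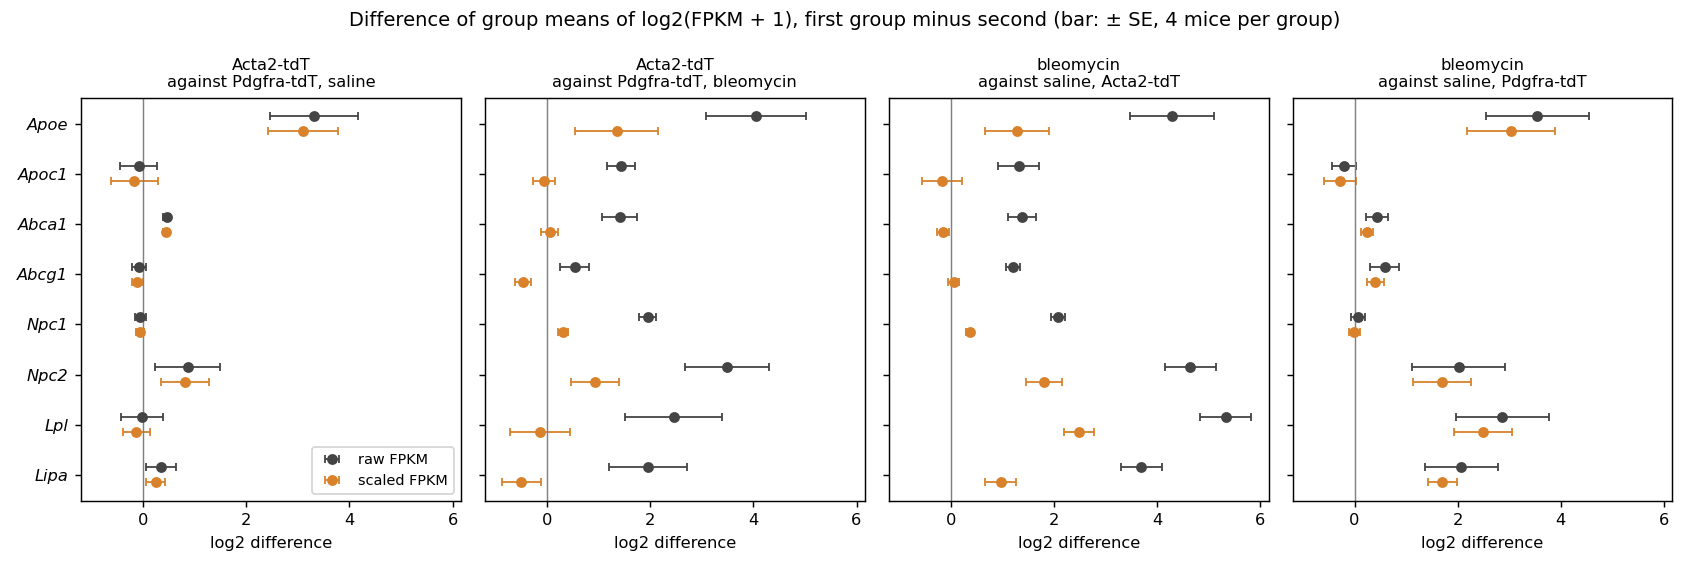
Difference between the group means of log2(FPKM + 1) for each member in the 4 comparisons, on the horizontal axis, as deposited and after scaling (points: first group minus second; bar: ± SE, n = 4 and 4). Scaling moves every member towards or past 0 where Acta2-tdT bleomycin mice enter the comparison, and moves each of them less in the other comparisons.

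Counted over the set, all 8 members had every Acta2-tdT bleomycin mouse above every Acta2-tdT saline mouse as deposited, where 67.8% of all genes tested did. These shares cover genes that reached 1 FPKM in at least 4 of the 8 mice compared, which not every member did. After scaling 4 members did (Npc1, Npc2, Lpl and Lipa), beside 21.5% of the genes tested. In Pdgfra-tdT mice the counts were 2 members as deposited (Apoe and Lipa) beside 1.43% of the genes tested, and 3 after scaling (Apoe, Lpl and Lipa) beside 1.31%. Between the lines, 2 members (Apoe and Abca1) were higher in every Acta2-tdT saline mouse on both scales, but only Apoe was among the genes tested, of which 6.56% were so as deposited and 7.75% after scaling. After bleomycin 5 members stood apart as deposited beside 56.8% of the genes tested, and 2 (Npc1 and Npc2) after scaling beside 18.9%. Without Pdgfra-tdT mice 3 (saline) and 5 (bleomycin), all 8 members stood apart between the lines after bleomycin as deposited, beside 73.7% of the genes tested, and 2 after scaling, beside 31.2%. The counts were then 4 as deposited and 5 scaled for bleomycin against saline in Pdgfra-tdT mice, beside 9.7% and 10.4% of the genes tested, and Abcg1, the fifth, was not among those. Under saline 3 members were higher in Acta2-tdT mice on both scales (Apoe, Npc2 and Abca1, the last not tested), beside 30.2% and 26.5%. Since these values chose the set, nothing is read from the counts. Only 4 members (Apoe, Npc2, Lpl and Lipa) reached 1 FPKM in at least 4 of the 8 mice in the saline comparison and in the Pdgfra-tdT comparison, while all 8 did in the other comparisons. The median log2 difference of the 8 members in Acta2-tdT mice was 2.88 as deposited and 0.67 after scaling, and in Pdgfra-tdT mice 1.30 and 1.05. The comparisons share groups, so their values stand side by side and were not set against each other.

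Marker genes of other cell types differed between the groups too. The summed FPKM of 17 macrophage markers, scaled, was 102 to 384 in Acta2-tdT saline, 362 to 1155 in Acta2-tdT bleomycin, 36.7 to 140 in Pdgfra-tdT saline and 668 to 1865 in Pdgfra-tdT bleomycin mice. None of the 17 was at 0 in any mouse except Siglecf, which was at 0 in Pdgfra-tdT saline mice only. Of the 17, 4 had every Acta2-tdT bleomycin mouse above every saline mouse after scaling, beside 21.5% of the genes tested, and 8 had so in Pdgfra-tdT mice, beside 1.31%. The scaled sum of the 9 fibroblast markers was 26.8 to 33.9 under saline and 239 to 362 under bleomycin in Acta2-tdT mice, where 6 of the 9 had every bleomycin mouse above every saline mouse, beside 21.5% of the genes tested. In Pdgfra-tdT mice the sum was 12.8 to 47.9 and 5.75 to 59.0, where 0 of the 9 did, beside 1.31% of the genes tested. Of the 9, 1, Pdgfra, had every bleomycin mouse below every saline mouse. Scaled Pdgfra was 2.91 to 4.95 FPKM under saline and 0.873 to 2.33 FPKM under bleomycin in that line, a log2 difference of -0.87 ± 0.22. The scaled sum of 6 pan-leukocyte markers was 183 to 258 in Acta2-tdT and 8.40 to 54.2 in Pdgfra-tdT saline mice. All 6 were higher in every Acta2-tdT saline mouse on both scales, beside 6.56% of the genes tested as deposited and 7.75% scaled. After bleomycin that sum was 163 to 332 in Acta2-tdT and 96.6 to 297 in Pdgfra-tdT mice. After scaling, 4 of the 6 had every bleomycin mouse above every saline mouse in the Pdgfra-tdT line, beside 1.31% of the genes tested. In the Acta2-tdT line 1 did, beside 21.5%. None of the 6 was at 0 in any mouse. The lines also differed in neutrophil genes: the scaled sum of 8 neutrophil markers ran from 129 to 884 in Acta2-tdT mice given bleomycin and from 1024 to 1535 in those given saline, whereas in Pdgfra-tdT mice it ran from 15.2 to 52.4 and from 18.1 to 76.0, respectively. The part of leukocytes as a whole, macrophages, fibroblasts, neutrophils or endothelial cells in the levels of the members was not tested.

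The 5 named genes whose course over the 16 mice was most like that of Apoe were C1qb, C1qa, C1qc, Cd63 and Fcgr3, on both scales. Likeness was the root mean square difference of centred log2(FPKM + 1) over the 16 mice, among 4564 genes. On the scaled values it was 0.41 for C1qb, 0.51 for C1qa and 0.65 for C1qc, where Apoe itself varied by 1.85 around its mean. C1qa, C1qb and C1qc encode the subunits of complement C1q and are among the 17 macrophage markers. Npc2 was at 1.10, Lpl at 1.43 and Lipa at 1.51 on the same measure. This is a description over mice that share libraries and depth, and it was not tested.

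Ratios to macrophage genes within a mouse are free of scaling. Apoe was 61.2 to 102 times Cd68, a macrophage lysosomal protein gene, in Acta2-tdT saline mice and 32.4 to 58.6 times in Acta2-tdT bleomycin mice. It was 15.5 to 39.4 times Cd68 in Pdgfra-tdT saline mice and 11.9 to 22.6 times in Pdgfra-tdT bleomycin mice. Against Cd68, Apoe was hence lower after bleomycin in every Acta2-tdT mouse, while its FPKM was higher. Against Lyz2, the lysozyme gene of macrophages and other myeloid cells, Apoe measured 2.63 to 5.92 in Acta2-tdT saline, 2.0 to 3.47 in Acta2-tdT bleomycin, 0.313 to 1.91 in Pdgfra-tdT saline and 0.163 to 0.588 in Pdgfra-tdT bleomycin mice. By this ratio each Acta2-tdT mouse stood above each Pdgfra-tdT mouse, whichever agent it had received. Scaled Lyz2 itself was lower in every Acta2-tdT than in every Pdgfra-tdT bleomycin mouse, a log2 difference of -1.86 ± 0.48. Against the sum of the 17 macrophage markers the lines overlapped. In the same order of groups, Apoe was then 1.38 to 2.29, 0.922 to 1.38, 0.230 to 1.04 and 0.140 to 0.400. Lpl was 0.233 to 1.18 times Cd68 in Acta2-tdT saline, 0.456 to 1.70 in Acta2-tdT bleomycin, 0.610 to 3.62 in Pdgfra-tdT saline and 0.615 to 1.58 in Pdgfra-tdT bleomycin mice, and all 4 groups overlapped. Against Lyz2, Lpl overlapped between the lines under saline. After bleomycin it did not, at 0.0281 to 0.0828 in Acta2-tdT and 0.00897 to 0.0228 in Pdgfra-tdT mice. Abca1 per Cd68 lay below its saline range after bleomycin in both lines, at 0.0125 to 0.0467 against 0.0697 to 0.376 in Acta2-tdT and 0.0135 to 0.0313 against 0.0570 to 0.241 in Pdgfra-tdT mice. Median Cd68 under saline and bleomycin was 3.44 and 137 FPKM in Acta2-tdT and 1.29 and 35.9 FPKM in Pdgfra-tdT mice. Abca1 was at or below the receptor gauge in all 4 Pdgfra-tdT saline mice and 1 Pdgfra-tdT bleomycin mouse, so the ratio of that line rests on readings near the gauge.

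**Figure D4:**
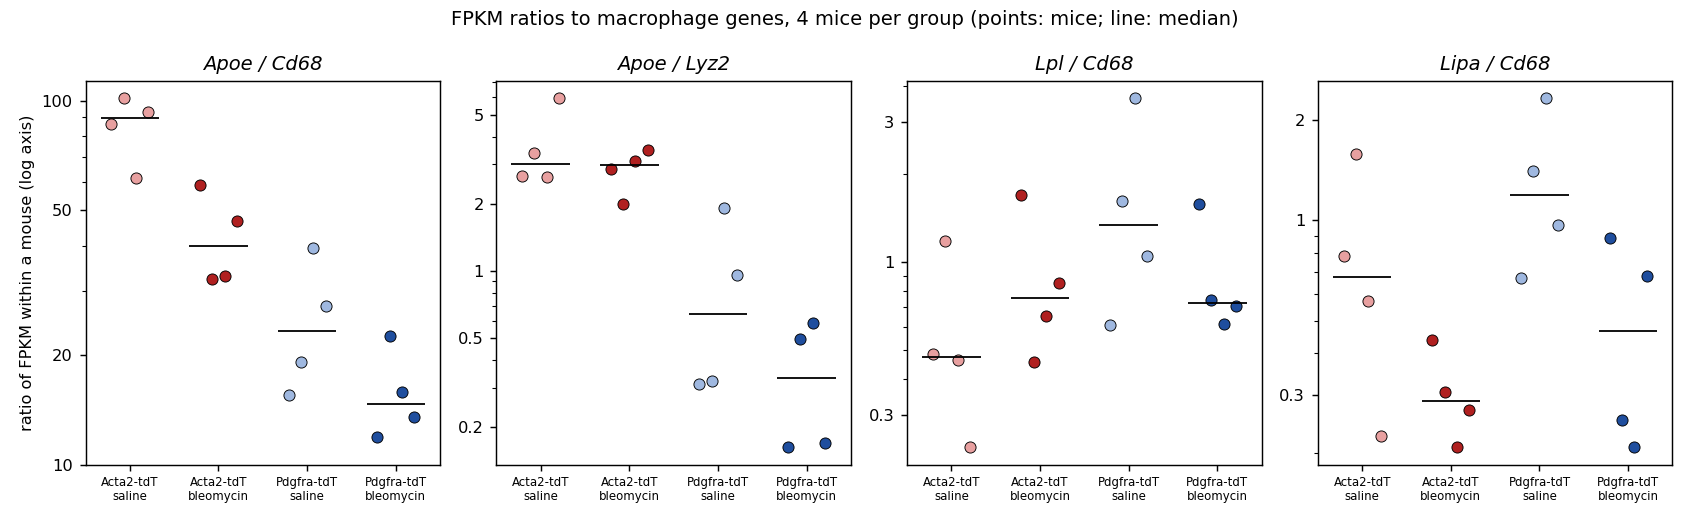
FPKM of Apoe, Lpl and Lipa divided by that of a macrophage gene in the same mouse (vertical log axis; points: mice; line: group median, n = 4). The ratio of Apoe to Lyz2 runs from 2.0 to 5.92 in Acta2-tdT mice and from 0.163 to 1.91 in Pdgfra-tdT mice, and the ratio of Lpl to Cd68 overlaps among the 4 groups.

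The other genes of cholesterol and lipoprotein metabolism, 128 genes in 7 lists of which 127 were in the tables, were tested with limma on log2(FPKM + 1), with adjustment over all genes tested. These lists were chosen with earlier results of these data known, so their shares beside those of all genes are a description. Genes with at least 1 FPKM in at least 4 mice compared entered the test, so a gene could enter through 1 group alone. Entry then favours a call of higher in that group, and the shares of all genes carry the same filter. Ch25h, Sqle, Srebf2, Lmf2 and Mbtps1, for example, stayed below 1 FPKM in every Acta2-tdT saline mouse. In Acta2-tdT mice 73 of 74 tested genes were higher after bleomycin and 0 lower as deposited, where 70.4% of all genes were higher and 16.3% lower. After scaling 36 (48.6%) were higher and 4 (5.41%) lower, where 23.9% and 32.6% of all genes were. The median log2 difference of the 74 genes was 0.43 after scaling, beside -0.02 over all genes. The 4 lower genes were Vldlr, Osbpl8, Ggps1 and Idi1, of which the last 3 are named because they were found to be lower. With no filter and as deposited, 83 of 127 genes of the lists were higher and 5 lower, beside 10076 and 5339 of 42342 genes.

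The enzymes of cholesterol synthesis were the list with the most genes tested and the most calls in Acta2-tdT mice. Of 17 tested, 17 were higher after bleomycin as deposited, and 11 were higher and 2 lower after scaling. Only 2 genes of this list passed the filter between the lines under saline, so most of the 17 needed the bleomycin mice to enter the test. Fdps, farnesyl diphosphate synthase, was at 0.296 to 1.24 FPKM under saline and 20.6 to 57.0 FPKM under bleomycin. Its log2 difference of 4.64 ± 0.37 (SE; adjusted p = 1.1e-05) became 1.95 ± 0.21 after scaling, and its adjusted p ran from 7.73e-06 to 0.000129 over 14 alternatives. Sqle, squalene epoxidase, rose by 3.09 ± 0.44 as deposited (adjusted p = 8.9e-05) and by 0.89 ± 0.19 after scaling.

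Genes of ester storage and oxysterols also differed in the same mice. All 9 tested were higher after bleomycin as deposited and 6 after scaling. Ch25h, which makes the LXR ligand 25-hydroxycholesterol, was 0.138 to 0.230 FPKM under saline and 15.3 to 26.8 FPKM under bleomycin, and rose by 4.18 ± 0.26 as deposited (adjusted p = 6.1e-06) and by 1.68 ± 0.14 after scaling. Plin2, a coat protein of lipid droplets, rose by 4.31 ± 0.46 (adjusted p = 2.0e-05), Soat1, which esterifies cholesterol, by 3.29 ± 0.30 (adjusted p = 1.4e-05), and Tspo, a mitochondrial protein that binds cholesterol, by 4.80 ± 0.44 (adjusted p = 1.4e-05). After scaling their log2 differences were 1.57 ± 0.35, 0.87 ± 0.20 and 1.84 ± 0.29, and all 3 passed the test under all of the alternatives. Cyp27a1, sterol 27-hydroxylase, did not reach the filter in any comparison, with at most 1.47 FPKM in a mouse.

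Of 12 tested receptors, 11 were higher as deposited, and after scaling 6 were higher and 1 lower. Trem2, a lipid receptor of macrophages and 1 of the 17 markers above, was 1.05 to 5.39 FPKM under saline and 43.6 to 203 FPKM under bleomycin, a log2 difference of 4.95 ± 0.54 (adjusted p = 2.2e-05) and of 2.13 ± 0.41 after scaling. The apolipoprotein E receptor Lrp1 rose by 3.04 ± 0.40 (adjusted p = 5.4e-05), the high density lipoprotein receptor Scarb1 by 3.57 ± 0.42 (adjusted p = 3.1e-05) and the endocytic receptor Stab1 by 3.27 ± 0.42 (adjusted p = 4.8e-05), and all 3 passed after scaling too. Msr1 and Cd36, 2 scavenger receptors, rose by 2.32 ± 0.44 (adjusted p = 5.8e-04) and 2.18 ± 0.35 (adjusted p = 1.8e-04), but measured 0.43 ± 0.18 (adjusted p = 0.072) and 0.14 ± 0.21 (adjusted p = 0.584) after scaling. These were the highest adjusted p over the alternatives of both genes. Vldlr had opposite signs on the 2 scales, with 0.36 ± 0.43 as deposited (adjusted p = 0.45) and -1.06 ± 0.16 after scaling (adjusted p = 4.2e-04, up to 0.784 over the alternatives). Scaled Vldlr was 1.74 to 2.28 FPKM under saline and 0.0435 to 0.589 FPKM under bleomycin.

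Among secreted carriers, all 5 tested were higher as deposited and 1 after scaling, Saa3, an acute-phase apolipoprotein. Saa3 was 0.595 to 1.13 FPKM under saline and 16.8 to 193 FPKM under bleomycin, and rose by 5.16 ± 0.62 (adjusted p = 3.3e-05) and, scaled, by 2.40 ± 0.41. Apoc2, Clu and Pltp rose by 2.50 ± 0.52 (adjusted p = 0.0011), 2.80 ± 0.48 (adjusted p = 2.9e-04) and 3.34 ± 0.49 (adjusted p = 1.1e-04) as deposited. Their scaled log2 differences of 0.34 ± 0.34, -0.03 ± 0.40 and 0.47 ± 0.37 did not pass, with adjusted p of 0.417, 0.948 and 0.297, the highest over the alternatives of each. Lipase regulators gave 9 of 9 higher as deposited and 3 after scaling. Lmf2, a lipase maturation factor, rose by 4.46 ± 0.35 (adjusted p = 1.1e-05), and by 1.82 ± 0.17 after scaling. Sterol transport genes gave 13 of 13 higher as deposited, and 6 higher and 1 lower after scaling, among them Lamp1, a lysosomal membrane protein, and Tmem97, an NPC1-binding protein, higher by 4.56 ± 0.49 (adjusted p = 2.2e-05) and 4.26 ± 0.47 (adjusted p = 2.2e-05) as deposited.

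The sterol-sensing list gave 9 of 9 higher as deposited and 3 after scaling. Only 1 gene of this list passed the filter between the lines under saline. Srebf2 and Mbtps1 stayed below 1 FPKM in every Acta2-tdT saline mouse and entered the test through the bleomycin mice. Srebf2, which encodes SREBP2, rose by 2.0 ± 0.26 (adjusted p = 5.6e-05), and by 0.31 ± 0.10 after scaling. Mbtps1, a protease that activates SREBP2, rose by 2.62 ± 0.26 (adjusted p = 1.7e-05), and by 0.44 ± 0.13 after scaling. Nr1h3, which encodes LXRα, rose by 2.31 ± 0.37 (adjusted p = 1.9e-04) but measured -0.09 ± 0.19 after scaling (adjusted p = 0.693, the highest over the alternatives), since scaled Nr1h3 was 1.71 to 2.62 FPKM under saline and 1.39 to 2.68 FPKM under bleomycin.

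**Figure D5:**
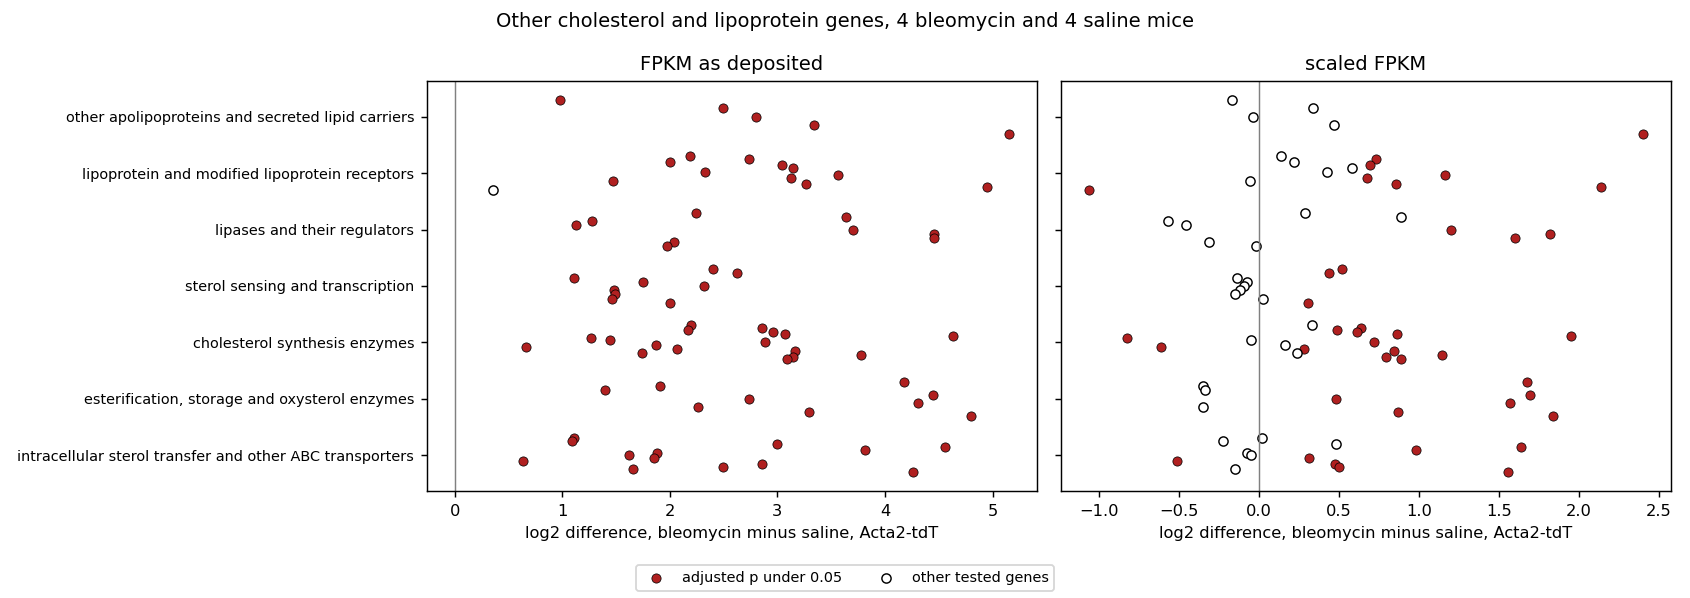
Log2 difference between Acta2-tdT bleomycin and saline mice (horizontal axis) for the 74 tested genes of the 7 lists (rows), as deposited on the left and scaled on the right (filled points: adjusted p under 0.05; open points: other tested genes; n = 4 and 4). As deposited 73 genes are filled and lie above 0, and after scaling 36 filled points lie above 0 and 4 below.

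Nr1h3 was also the only gene of the 7 lists that differed between the lines under saline, out of 19 tested and beside 2.91% of all genes called as deposited and 3.42% scaled. It was 1.28 to 3.09 FPKM in Acta2-tdT and 0.0228 to 0.606 FPKM in Pdgfra-tdT saline mice, higher in 4 of 4 Acta2-tdT mice. The log2 difference was 1.25 ± 0.24 (adjusted p = 0.0309), and 1.33 ± 0.21 after scaling (adjusted p = 0.00957). The call held in 3 of 14 alternatives, with adjusted p from 0.00652 to 0.168. Without Pdgfra-tdT saline mouse 3, the mouse with the high endothelial sum, 9 genes of the lists were called in place of 1. Of these, 7 were higher and 2 lower in Acta2-tdT mice, and 2397 of all 8153 genes were then called. The Nr1h3 call was lost without any 1 of Acta2-tdT saline mice 1, 3 and 4 or Pdgfra-tdT saline mice 1, 2 and 4.

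After bleomycin, 66 of 78 tested genes of the lists were higher in Acta2-tdT than in Pdgfra-tdT mice and 0 lower as deposited, beside 71% and 8.61% of all genes. After scaling 13 (16.7%) were higher and 4 (5.13%) lower, beside 15.8% and 17.6% of all genes. Angptl4, a secreted inhibitor of lipoprotein lipase, was 39.7 to 105 FPKM in Acta2-tdT and 0.146 to 1.14 FPKM in Pdgfra-tdT bleomycin mice. Its log2 difference was 5.52 ± 0.54 (adjusted p = 4.8e-05) and 2.86 ± 0.45 after scaling, and it passed in all 15 alternatives. Nr1h3, at 8.05 to 25.3 FPKM in Acta2-tdT and 0.0339 to 1.75 FPKM in Pdgfra-tdT bleomycin mice, was higher by 3.32 ± 0.48 (adjusted p = 1.9e-04) and by 1.03 ± 0.36 after scaling. Ch25h, Saa3, Stab1 and Tmem97 were higher in Acta2-tdT mice under all alternatives as well, with scaled log2 differences of 1.38 ± 0.33, 1.94 ± 0.63, 1.02 ± 0.34 and 1.67 ± 0.46. Cd36 differed in the other direction after scaling, by -2.82 ± 0.74 (adjusted p = 0.0164, 0.0116 to 0.973 over the alternatives), and was not called as deposited at -1.03 ± 1.05 (adjusted p = 0.37). In Pdgfra-tdT bleomycin mice 5 to 8 Cd36 was 148, 23.2, 7.93 and 1.38 FPKM, and the endothelial marker sum was 1184, 135, 38.7 and 5.22 FPKM in the same order. Of the 7 endothelial markers, 3 were lower in every Acta2-tdT than in every Pdgfra-tdT bleomycin mouse after scaling. The share of all genes below in this way is not given here, while limma called 17.6% of them lower. The part of endothelial cells in the Cd36 difference was not tested. The 4 genes lower in Acta2-tdT mice after scaling were Cd36, Apod, Gpihbp1 and Fabp5, and the last 2 are named for that reason. Apod, a lipocalin that binds lipids, likewise measured -0.21 ± 0.35 as deposited (adjusted p = 0.585) and -0.96 ± 0.16 after scaling (adjusted p = 0.00339, up to 0.908 over the alternatives).

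In Pdgfra-tdT mice none of 24 tested genes of the lists passed the limma test between bleomycin and saline on either scale, where 0.124% of all genes were called as deposited and 0.137% after scaling. In 1 fit over all 16 mice, 1 of the 24 passed, Fabp5, which was higher after bleomycin. At an unadjusted p under 0.05 there were 3 on each scale, Trem2, Plin2 and Fabp5, the last of which is named for these reasons alone. Over all 7275 genes there were 312 as deposited and 324 after scaling. Trem2 was 0.356 to 1.51 FPKM under saline and 2.57 to 41.7 FPKM under bleomycin, higher in 4 of 4 bleomycin mice, with a log2 difference of 3.16 ± 0.74 (adjusted p = 0.525, 0.0183 to 0.973 over the alternatives). Plin2 was 0.560 to 2.97 FPKM under saline and 1.63 to 22.5 FPKM under bleomycin, a difference of 2.37 ± 0.73 (adjusted p = 0.791). Cd36 was 174 FPKM in saline mouse 3, whose endothelial sum was 509 FPKM, and 0.788 to 0.948 FPKM in the other 3 saline mice. Bleomycin mouse 8 was the lowest of its group for every member but Apoc1 as deposited, and without it 73 genes were called in place of 9, with 3 genes of the lists among them.

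Whether bleomycin went with a different change in the 2 lines was tested by the interaction of line and agent in limma over the 16 mice. As deposited, 56 of 85 tested genes of the lists (65.9%) had a larger difference in Acta2-tdT mice and 0 a larger one in Pdgfra-tdT mice, beside 36.6% and 3.2% of all genes. After scaling 0 of the 85 passed, beside 2.22% of all genes, and 21 had an unadjusted p under 0.05, beside 3165 of all 16605 genes.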

How the data were processed

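Cells positive for tdTomato were sorted from dissociated left lungs of 16 mice, 4 per group, and their RNA was sequenced by SmartSeq2. Per the labels and the study's methods, the authors mapped reads to mm10 with TopHat2 2.1.1 and estimated FPKM per gene with Cufflinks 2.1.1, and the deposited values are these FPKM, with Cufflinks' intervals. FPKM were summed per Ensembl gene, and 15 genes without a valid estimate in some mouse, by the status Cufflinks gave them, were left out of the fits. The FPKM were not whole multiples of a value per read, so exact depth is not known and no counting interval is given. The widths of Cufflinks' intervals, read as counting error summed over genes, correspond to about 1355000 to 2250000 fragments in Acta2-tdT saline, 4794000 to 8324000 in Acta2-tdT bleomycin, 1361000 to 2009000 in Pdgfra-tdT saline and 599000 to 3347000 in Pdgfra-tdT bleomycin mice, a rough estimate.

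Each mouse was scaled to the median nuclear protein-coding sum, over 21950 genes. Tests used limma 3.58.1 in R 4.3.3 on log2(FPKM + 1) of the groups compared, for genes with at least 1 FPKM in at least 4 of the 8 mice, with Benjamini-Hochberg adjustment over all genes tested and a threshold of 0.05. The pseudocount of 1 understates changes of low genes. An interaction of line and agent was fitted over the 16 mice. Tables were prepared with Python 3.11.15 and pandas 2.3.3, and the fits were tested on simulated data. The members and lists were chosen with earlier results of these data known. Other genes named were a set of 20 listed by name and, for each list and comparison, the gene with the largest difference past the threshold, of which 2 are not reported here. Alternatives tried were scaled values, quantile normalization, a pseudocount of 0.1, the filter dropped or set at a mean of 5 FPKM, 1 fit over 16 mice, a block for the mouse number, and each mouse left out. P-values measure the spread between these mice.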

Additional observations from a re-analysis of the deposited data

Results flagged for a closer look

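In groups of 4 mice, a mouse far from the other 3 was sought by Dixon's test for each member on both scales, 64 tests in all, of which chance flags about 1 in 20. Pdgfra-tdT saline mouse 3 stood high for Npc1 at 0.521 FPKM and for Npc2 at 4.88 FPKM as deposited and 4.00 FPKM scaled. This mouse also had the high endothelial marker sum of 509 FPKM, and the part of such cells in these values was not tested. Lpl stood high in Acta2-tdT bleomycin mouse 7 at 27.6 scaled FPKM and low in Pdgfra-tdT bleomycin mouse 8 at 5.29 scaled FPKM. Apoc1 was listed at 0 FPKM in Pdgfra-tdT bleomycin mouse 5.

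The difference between bleomycin and saline differed between the lines for 6605 of 16605 genes as deposited, by the interaction term of limma, and for 56 of 85 tested genes of the 7 pathway lists, all with the larger value in Acta2-tdT mice. The log2 interactions of the named genes were 4.89 for Saa3, 3.83 for Angptl4, 3.82 for Tmem97, 3.75 for Lmf2, 3.73 for Fdps and 3.56 for Ch25h. They were 2.93 for Stab1, 2.79 for Soat1, 2.77 for Sqle, 2.39 for Mbtps1 and 2.35 for Lrp1. Lower values were 2.13 for Srebf2, 2.07 for Nr1h3, 2.07 for Msr1 and 2.0 for Apoc2. Scaled, the log2 interactions of these 15 genes ran from -0.298 to 2.39, with a lowest adjusted p of 0.0506 by limma. After scaling, none of the 85 genes passed the limma test of the interaction, where 2.22% of all genes were called. An unadjusted p under 0.05 was found for 21 of the 85 and for 3165 of all 16605 genes.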

How the results depend on the processing

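The higher and lower calls after bleomycin in Acta2-tdT mice were 8811 and 2037 as deposited and 2999 and 4084 scaled, between the lines after bleomycin 8520 and 1033 against 1900 and 2112, and for the interaction 6074 and 531 against 221 and 148. With 1 mouse left out, the 1033 lower calls between the lines after bleomycin became 400 to 1319. Between the lines under saline, 237 genes were called, but 59 with no filter, 49 at a mean of at least 5 FPKM, 126 in 1 fit over 16 mice, and 88 to 2397 with 1 mouse left out, the highest without Pdgfra-tdT saline mouse 3. The 1 pathway gene called became 0 with a pseudocount of 0.1, no filter, the mean of 5 FPKM or quantile normalization, and 0 to 9 with 1 mouse left out. After bleomycin, 9553 genes between the lines became 4726 at the mean of 5 FPKM, 4012 scaled and 4185 with quantile normalization, and 66 pathway genes became 35, 17 and 17. In Acta2-tdT mice, 10848 genes became 5069 at the mean of 5 FPKM and 7083 scaled, and 73 pathway genes became 37 and 40, and 48 with quantile normalization. In Pdgfra-tdT mice, 9 genes became 2 with no filter, 15 in 1 fit over 16 mice, and 6 to 73 with 1 mouse left out, and the 0 pathway genes became 1 in 1 fit over 16 mice and 0 to 3 with 1 mouse left out, both highest without bleomycin mouse 8. There were 19 genes without saline mouse 3 and bleomycin mouse 5, an alternative chosen after seeing the data. The 6605 interaction calls became 3463 with a pseudocount of 0.1, 1644 at the mean of 5 FPKM, 369 scaled and 1595 with quantile normalization, and its 56 pathway calls became 37, 13, 0 and 14.

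Among members, and other named genes called with or without the change, signs turned after scaling for Apoc1 (-0.0583), Abcg1 (0.54 to -0.46), Lpl (2.46 to -0.13), Lipa (1.97 to -0.49), Plin2 (-0.11) and Trem2 (-0.0157) between the lines after bleomycin, for Apoc1 (-0.17), Abca1 (-0.15), Clu (-0.0338), Nr1h3 (-0.093) and Vldlr (-1.06) after bleomycin in Acta2-tdT mice, for Npc1 in Pdgfra-tdT mice (0.0688 to -0.0021), and for Apoc2 (-0.0914) and Nr1h3 (-0.30) in the interaction. With quantile normalization they turned between the lines after bleomycin for Apoc1 (-0.0109), Abcg1 (-0.79) and Lipa (-0.46), and for Vldlr in Acta2-tdT mice (-1.09). The 256 member differences with 1 mouse left out moved by less than the spread between mice. In groups of this size, leaving 1 mouse out cannot move a difference by more than that spread. The result was therefore fixed beforehand and does not show that the member differences are stable. Mouse numbers do not pair the mice: same-numbered mice of the lines had correlations of -0.307 to 0.157, and 2 of 8 mice matched best with their own number. With the replicate block, 36 genes and 0 pathway genes were called under saline. The cause of these changes was not tested, except that fewer genes enter at the mean of 5 FPKM. Exact depth is not known, and members near the receptor gauge could not be resolved.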
